A study of Mus musculus with 10 samples.

Results

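The 6 cell cycle regulators described here are Cdkn1a, Wee1, Ccnd1, Myc, Btg2 and Mcm6, out of 20718 named units measured in mouse liver. A unit is a gene, or a combination of genes that share a probe set. The members were chosen from their measured difference between the genotypes in these same arrays, together with their place in the cell cycle. Their differences between genotypes are therefore given as a description, without a test. Livers came from 5 wild-type (WT) C57Bl/6 mice that were bought, and from 5 knockout (KO) mice lacking Nr1d1, written Rev-erb alpha -/-, whose line had been crossed back to C57Bl/6 for 7 or more generations. All 10 mice were males of 10 to 12 weeks on chow, kept on a cycle of 12 h light, 12 h dark. They were killed 10 h after lights on (ZT10), and 1 mouse gave 1 array. Both groups share sex, diet and hour, and C57Bl/6 is the strain of the WT mice and the backcross strain of the KO line. Since the WT mice were bought and the KO mice came from a backcrossed line, genotype and the origin of the mice cannot be told apart. With 1 time of day, rhythm was not measured, and the members cannot be described as gated by the clock in these livers.

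Rev-erb alpha, the product of Nr1d1, is a nuclear receptor that recruits corepressors and competes with the activating ROR receptors for the same DNA elements. It represses Arntl, which encodes the clock activator BMAL1, and BMAL1 with CLOCK binds E-boxes. The adult liver divides rarely, and in the regenerating liver the hour of entry into mitosis is known to follow the clock. Cdkn1a encodes p21, which binds and blocks cyclin-dependent kinases, and BMAL1, Rev-erb and ROR proteins have been placed upstream of it. WEE1 is the kinase that holds back CDK1 before mitosis, and its gene is a known E-box target of the clock. Cyclin D1 (Ccnd1) drives cells through G1 with CDK4 and CDK6. MYC is a growth-promoting transcription factor, BTG2 an antiproliferative protein induced by p53, and MCM6 a subunit of the replicative helicase.

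The start-site sequences of the members with an entry are shown first, to let the letters near these genes be read beside their values. RefSeq's table of promoter windows (build GRCm38.p6, from 250 bases before to 50 after each start) held 32851 windows, 4 of them from 3 members. These are Cdkn1a, with 2 starts that lie 2790 bases apart, Btg2 and Mcm6. Positions are counted from the start site, with -1 the base just before it. All sequences run 5′ to 3′ on the gene's own strand. The Cdkn1a stretches span chr17:29090849-29090978 and chr17:29093639-29093768 on the plus strand. The Mcm6 stretch spans chr1:128359706-128359835 and the Btg2 stretch chr1:134079246-134079345, both on the minus strand. Capitals mark p53 recognition units at Cdkn1a start 1, GC boxes (GGGCGG) at Cdkn1a start 2, E2F motifs (TTTNNCGC) at Mcm6, and a CCAAT box and a cAMP response element (TGACGTCA) at Btg2. A short piece at start 2 of Arntl, chr7:113207533-113207558 on the plus strand, is added for its ROR and Rev-erb element (ANTAGGTCA), also in capitals.
Cdkn1a start 1: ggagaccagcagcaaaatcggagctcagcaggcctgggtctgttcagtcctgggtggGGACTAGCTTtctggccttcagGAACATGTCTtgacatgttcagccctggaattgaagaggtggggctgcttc
Cdkn1a start 2: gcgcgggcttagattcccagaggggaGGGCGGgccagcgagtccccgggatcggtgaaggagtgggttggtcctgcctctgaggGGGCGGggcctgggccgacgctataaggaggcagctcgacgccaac
Mcm6: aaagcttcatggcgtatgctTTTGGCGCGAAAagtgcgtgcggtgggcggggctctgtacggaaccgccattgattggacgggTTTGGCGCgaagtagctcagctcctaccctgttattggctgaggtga
Btg2: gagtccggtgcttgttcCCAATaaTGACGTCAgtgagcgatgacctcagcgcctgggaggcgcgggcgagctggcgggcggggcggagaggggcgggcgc
Arntl start 2: gcagaaAGTAGGTCAgggacggaggt

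Each motif was searched on both strands in the whole window. At Cdkn1a start 1 the p53 recognition units lay at -73 to -64 and at -51 to -42, and 8.36% of all windows hold at least 1 such unit. The unit searched was RRRCWWGYYY (R is A or G, W is A or T, Y is C or T), with no mismatch. The letters that directly follow the latter unit, tgacatgttc, miss this pattern only at their first base and stayed in lowercase. GC boxes, present in 35.7% of windows, lay at -104 to -99 and at -46 to -41 of Cdkn1a start 2. The Mcm6 and Btg2 windows held GC boxes too, which are not capitalized above. The Mcm6 window held the E2F motif 3 times, at -110 to -103, at -106 to -99 on the other strand, overlapping the former, and at -47 to -40. That motif occurs in 5.17% of windows. The Btg2 window held the cAMP response element at -166 to -159, a motif of 1.79% of windows, next to a CCAAT box at -173 to -169, which 37.4% of windows hold. Another CCAAT box lay at -34 to -30 of Btg2, and the Mcm6 window held CCAAT boxes on the other strand. The E-box CACGTG occurs in 7.15% of windows, the related CACGTT in 4.68%, the D-box TTANGTAA in 2.32% and ANTAGGTCA in 0.661%. None of these 4 motifs was found in the 4 windows of the members, while ANTAGGTCA lay at 29 to 37 bases after the start in the Arntl window. The nuclear receptor core motif AGGTCA, with which ANTAGGTCA ends, occurs in 16.3% of windows and lay at -150 to -145 on the other strand of the Btg2 window. A match is a description of letters, and a missing match says only that they are not in these windows.

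Values are log2 of the deposited array intensity, so that a difference of 1 is a 2-fold change. Differences are KO minus WT with the standard error (SE) of a limma fit over all units, and a unit is called at a Benjamini-Hochberg adjusted p under 0.05. The arrays had median intensities from 156 to 165. Of all units 5.51% were called, 3.09% higher and 2.42% lower in KO, and in 7.00% the arrays of the genotypes did not overlap. All 6 members were called, 1 higher and 5 lower, and 5 did not overlap. The members were chosen on that contrast, so nothing is read from these counts. The targeted gene read 10.00, 9.80, 9.60, 9.85 and 9.64 in WT and 9.29, 9.77, 10.54, 9.95 and 10.04 in KO (difference 0.14, SE 0.18, limma adjusted p = 0.803). No source used here says whether its probes lie in the deleted part, so Nr1d1 does not check the labels. The mean of 9 hepatocyte markers lay between 13.59 and 13.63 in WT and between 13.55 and 13.63 in KO, and limma called 0 of them (0 at an unadjusted p under 0.05). These markers read near the top of the measured range, where the highest intensity was 18280, so nothing is read from them about hepatocyte content. Of 54 markers of 8 other cell types, 1 was called, the cholangiocyte and progenitor factor Sox9 (0.62 higher, SE 0.13, limma adjusted p = 0.0136). The other cholangiocyte markers tested, Krt19 (-0.02), Krt7 (-0.11), Epcam (-0.007) and Cftr (0.11), were not called. Sox9 was not called without the 3 arrays of widest interquartile range (limma adjusted p = 0.0692). In bulk liver, fewer cells of a type and less RNA per cell cannot be told apart.

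Cdkn1a, the inhibitor, was the single member that was higher in KO, and by far the most. Its probe set (10443463) is shared with 4930567H12Rik, a long noncoding RNA gene that the RefSeq table places on chromosome 8 while Cdkn1a lies on chromosome 17. The reading cannot be divided between them. In order of replicate, the WT livers read 7.47, 7.54, 7.32, 7.08 and 7.15, and the KO livers 10.78, 10.47, 11.38, 10.98 and 11.70. The genotypes did not overlap, and the nearest livers were 2.94 apart. The means were 7.31 ± 0.20 (SD, n = 5) in WT and 11.06 ± 0.48 (SD, n = 5) in KO, a difference of 3.75 (SE 0.19) or 13.5-fold. That was number 4 among all increases by size. KO 5 and KO 3 were highest and KO 2 lowest of the KO livers, and with any 1 array left out the difference stayed between 3.59 and 3.90.

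Wee1, the kinase that delays mitosis, was lower in KO. WT livers read 10.16, 10.11, 10.14, 10.53 and 10.47, and KO livers 9.49, 9.59, 9.43, 9.66 and 9.52. WT 1 to WT 3 lay close together while WT 4 and WT 5 stood above them, and the genotypes were apart by 0.45. Means were 10.28 ± 0.20 (SD, n = 5) and 9.54 ± 0.090 (SD, n = 5), a difference of -0.75 (SE 0.087), which is 1.68-fold lower in KO. By size this was number 73 among decreases.

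Ccnd1, whose product opens G1, was also lower in KO. The WT values were 11.11, 10.80, 10.88, 10.28 and 10.45, and the KO values 9.24, 9.53, 9.60, 9.34 and 9.60. The lowest WT liver, WT 4, was 0.67 above the highest KO liver. Means of 10.70 ± 0.33 (SD, n = 5) and 9.46 ± 0.16 (SD, n = 5) gave a difference of -1.24 (SE 0.14), 2.36-fold lower in KO and number 23 among decreases.

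Myc had the largest decrease of the 5 lower members and the widest scatter. WT livers read 7.86, 9.50, 9.55, 10.36 and 9.24, and KO livers 7.91, 7.34, 7.54, 7.31 and 7.95. WT 1 lay inside the KO range, whereas the other 4 WT livers exceeded all of the KO range. Means were 9.30 ± 0.91 (SD, n = 5) and 7.61 ± 0.30 (SD, n = 5), a difference of -1.69 (SE 0.35), 3.24-fold lower in KO and number 6 among decreases. The difference was -2.05 without WT 1 and -1.43 without WT 4, the extremes over all single arrays left out.

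Btg2 and Mcm6 differed least. Btg2, the antiproliferative gene, read 8.57, 8.85, 9.32, 8.70 and 8.70 in WT and 8.23, 8.12, 8.01, 8.28 and 8.55 in KO. The genotypes came within 0.028 of each other, between WT 1 and KO 5. Its means of 8.83 ± 0.29 (SD, n = 5) and 8.24 ± 0.20 (SD, n = 5) differed by -0.59 (SE 0.13), 1.51-fold, and by -0.47 without WT 3. The helicase gene Mcm6 read 7.64, 7.19, 7.26, 7.32 and 7.17 in WT and 6.89, 7.06, 6.93, 6.92 and 7.13 in KO, with a gap of 0.038. Among WT livers, WT 1 was the highest for Mcm6 and the lowest for Myc and Btg2. The Mcm6 means of 7.32 ± 0.19 (SD, n = 5) and 6.99 ± 0.10 (SD, n = 5) differed by -0.33 (SE 0.086), 1.26-fold, and by -0.25 without WT 1. Mcm6 was number 489 and Btg2 number 141 among decreases.

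**Figure D1:**
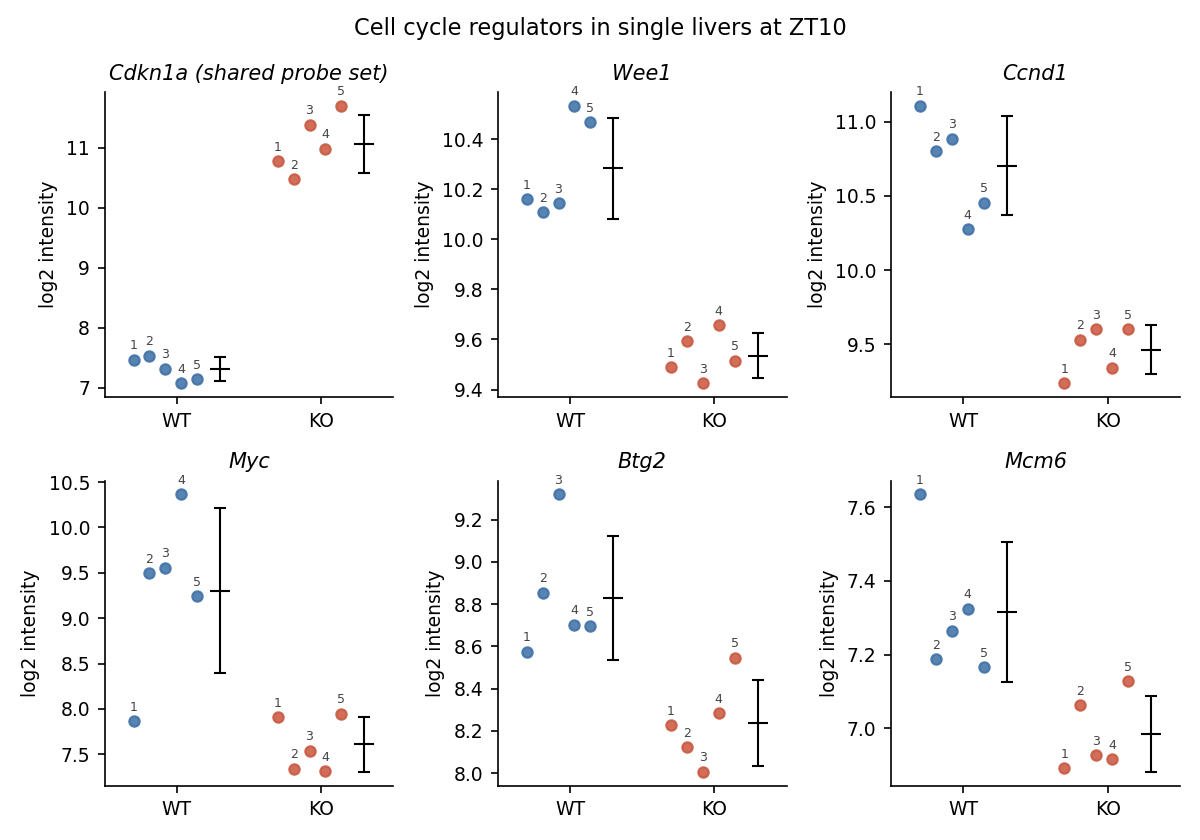
Log2 intensity of each member (vertical axis, a separate scale per panel) in single WT and KO livers at ZT10, with replicate numbers, and mean ± SD beside the points (n = 5 each). Cdkn1a is high in all KO livers, the other 5 members are low there, and only Myc has a WT liver, replicate 1, inside the KO range.

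The replicate spread of the members was not alike in the genotypes. The SD was larger in WT for 5 of 6 members, by 2.22 times for Wee1, 2.03 times for Ccnd1, 3.0 times for Myc, 1.44 times for Btg2 and 1.84 times for Mcm6. For Cdkn1a it was 2.44 times larger in KO. For every member the larger SD thus lay in the genotype with the higher mean, so genotype and level cannot be told apart here. Single livers carried part of these SD differences, as leaving out each in turn showed, a step added after the data were seen. Without WT 3 the Btg2 SD was 0.11 in WT and 0.20 in KO, and without WT 1 the Mcm6 SD was 0.073 in WT and 0.10 in KO, so that both turned. Without WT 1 the Myc ratio was 1.60, and without KO 5 that of Btg2 was 2.38. For Cdkn1a, Wee1, Ccnd1 and Myc the same genotype kept the larger SD whichever liver was left out. Over all units the SD was larger in WT in 48.6%, with a median SD of 0.095 in WT and 0.098 in KO.

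The nearest relatives of the members were set beside them whatever their values. Cdkn1b and Cdkn1c encode p27 and p57, the other inhibitors of the p21 family. Cdkn1b differed by 0.06 (95% interval -0.06 to 0.18, limma adjusted p = 0.661) and Cdkn1c by -0.02 (-0.21 to 0.17, limma adjusted p = 0.949). Cyclins D2 and D3 differed by 0.03 (Ccnd2, -0.15 to 0.22, limma adjusted p = 0.912) and -0.09 (Ccnd3, -0.22 to 0.05, limma adjusted p = 0.557). Pkmyt1, the other kinase that inhibits CDK1, differed by -0.06 (-0.23 to 0.10, limma adjusted p = 0.783). Btg1, the nearest relative of Btg2, was higher in KO. It read 9.91, 9.79, 10.29, 10.43 and 10.06 in WT and 10.77, 10.70, 10.78, 10.81 and 10.89 in KO, without overlap. The Btg1 increase was 0.69 (SE 0.11, limma adjusted p = 0.00206), 1.62-fold.

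**Figure D2:**
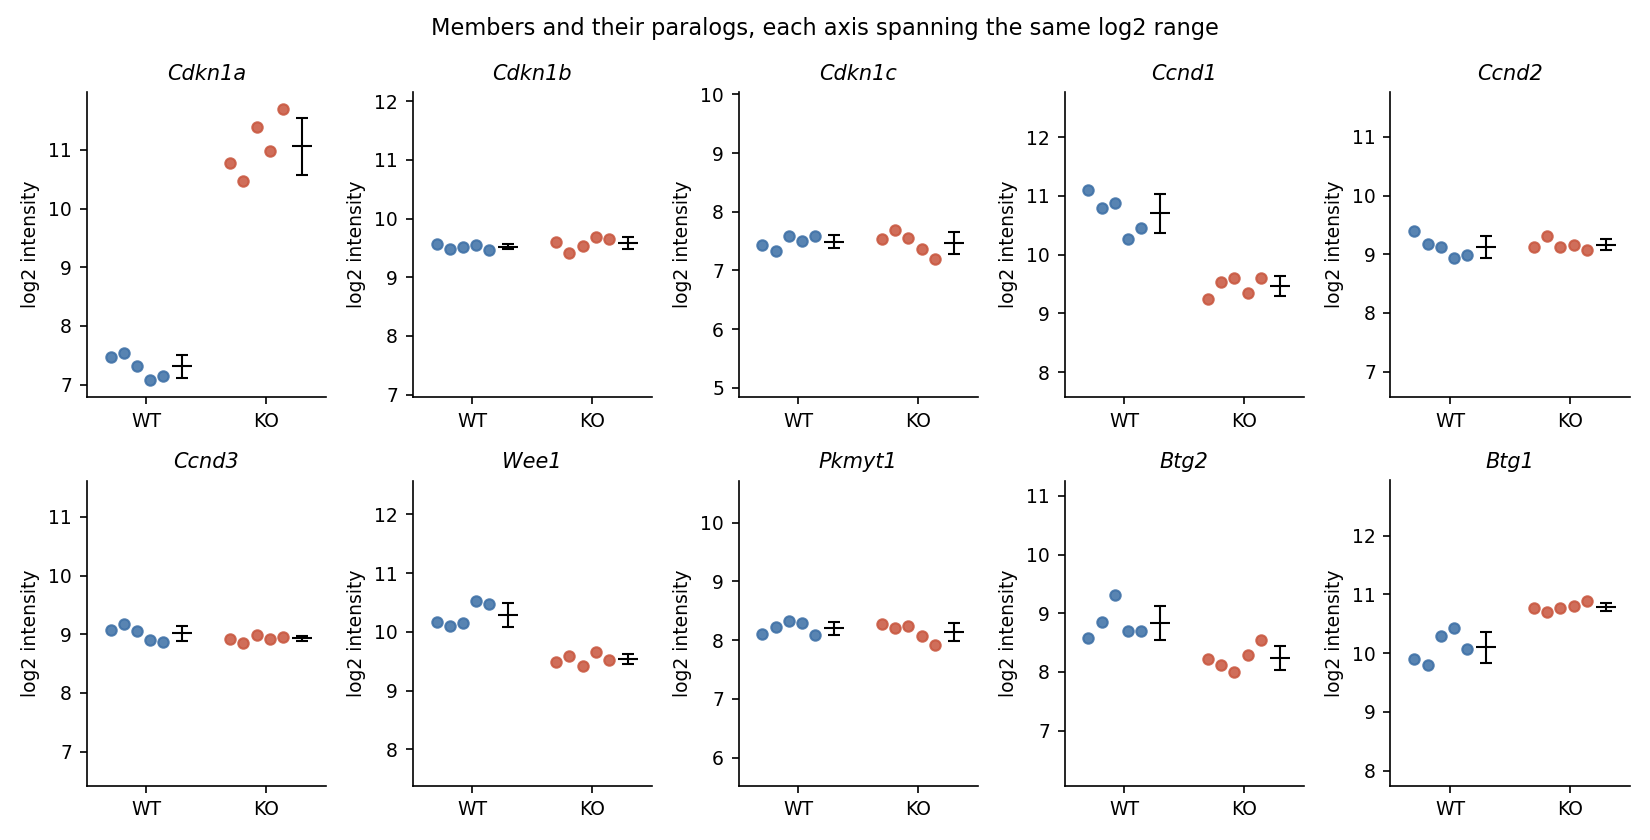
Log2 intensity in single WT and KO livers for members and their paralogs, with mean ± SD (n = 5 each) and a vertical axis of equal span in every panel. Cdkn1b, Cdkn1c, Ccnd2, Ccnd3 and Pkmyt1 overlap between genotypes, and Btg1 is higher in all KO livers while Btg2 is lower. The Cdkn1a probe set is shared with 4930567H12Rik.

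Around the members, 159 other genes of 11 lists on their pathways were tested, of which 7 rose, 8 fell and 144 did not pass. That is 4.40% higher and 5.03% lower, against 3.09% and 2.42% of all units. The median difference of the listed genes was -0.03, against 0.01 over all units, and 60.4% had a negative difference, against 46.1% of all units. The lists were chosen with earlier results of these data known, so these shares are a description and not a test. The array annotation gives Btg3 only on a probe set with several genes, and Ccnb1, Trp53 and Bax were not analysed here. When the 3 arrays with the widest interquartile range (WT 1, KO 4 and KO 5) were left out, 2 of the 159 were called, Dbf4 (-0.55, limma adjusted p = 0.0185) and Plk3 (-1.66, limma adjusted p = 0.00897).

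Among Cdk inhibitors other than Cdkn1a, 0 of 7 passed in limma, and 0 had an unadjusted p under 0.05. Among 19 cyclins, kinases, pocket proteins and E2F factors of G1 and S phase, 1 fell. It was Ccne1, cyclin E1, the partner of CDK2, at 8.49, 8.55, 8.43, 7.85 and 8.02 in WT and 7.64, 7.54, 7.45, 7.43 and 7.61 in KO. Like Ccnd1, Ccne1 was lowest in WT 4 and WT 5 among WT livers, and it did not overlap. It fell by 0.74 (SE 0.12, limma adjusted p = 0.00398), 1.66-fold. Ccne2 differed by -0.40 (limma adjusted p = 0.0941), E2f4 by -0.18 (0.114) and E2f6 by -0.23 (0.139). Ccne2 passed as lower without WT 5 (adjusted p = 0.0336) and E2f6 without KO 5 (0.0498).

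Of 13 genes that gate G2 and mitosis, 1 fell, Cks1b, whose product binds Cdks and helps to degrade p27. Cks1b read 9.76, 9.16, 9.06, 8.80 and 9.24 in WT and 8.63, 8.75, 8.07, 8.48 and 8.38 in KO, a decrease of 0.74 (a difference of -0.74, SE 0.16, limma adjusted p = 0.0196). The genotypes were apart by 0.049. The kinase CDK1 itself, which WEE1 restrains, differed by -0.19 (limma adjusted p = 0.0944), the checkpoint kinase Chek1 by -0.42 (0.163) and the phosphatase Cdc25a, which opposes WEE1, by -0.29 (0.171). Cdc25a passed as lower without WT 4 (adjusted p = 0.0324). In 22 proliferation markers limma called 0, with 3 at an unadjusted p under 0.05. Next to Cdk1, the smallest adjusted p-values there were those of Aurka (0.13, adjusted p = 0.163), Ube2c (-0.17, 0.217) and Ttk (-0.09, 0.437).

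MYC's network and its targets were listed separately. In the extended network of MYC, MAX, MLX and related proteins, limma called 0 of 12, with 1 at an unadjusted p under 0.05. Max differed by -0.18 (limma adjusted p = 0.409), Mxd4 by -0.12 (0.227), Mlx by -0.20 (0.290) and Mycl by 0.18 (0.423). Of 17 known target genes 1 rose, 1 fell and 15 did not pass, with a median of -0.19 and 14 negative differences. The 1 that fell was Srm, spermidine synthase, at 11.65, 11.53, 11.35, 10.77 and 11.01 in WT and 10.83, 10.82, 10.61, 10.69 and 10.66 in KO. The groups overlapped at WT 4, and the decrease in Srm was 0.54 (a difference of -0.54, SE 0.14, limma adjusted p = 0.0472). Its call was kept only without WT 4 or WT 5 and lost without any other single array, with limma adjusted p up to 0.111. With all arrays kept, the Srm call was lost when every probe set was tested (limma adjusted p = 0.0601) and with median centring (0.0525). A trended robust fit (0.0661), array weights (0.0856) or an added pseudocount (0.0545) lost it too. The ribosome-building genes Nop56 (-0.44, limma adjusted p = 0.0513) and Nop58 (-0.64, 0.0721) did not pass. Over 20 alternatives the number of targets that fell ranged from 0 to 3, with 3 without WT 4, where Srm (adjusted p = 0.00509), Nop56 (0.0152) and Nop58 (0.0285) passed. Shmt1, a serine hydroxymethyltransferase of one-carbon metabolism, rose by 0.23 (SE 0.043, limma adjusted p = 0.00857) without overlap.

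Mean levels of the 17 target genes did not follow the order of Myc among WT livers. They were 9.93, 9.94, 9.74, 9.54 and 9.63 in WT 1 to WT 5, and 9.51, 9.61, 9.47, 9.64 and 9.57 in KO 1 to KO 5. WT 1, with a Myc value of 7.86 as low as in KO, had a target mean of 9.93, and WT 4, with the highest Myc at 10.36, had the lowest WT target mean. This is a description of 5 livers and was not tested.

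**Figure D3:**
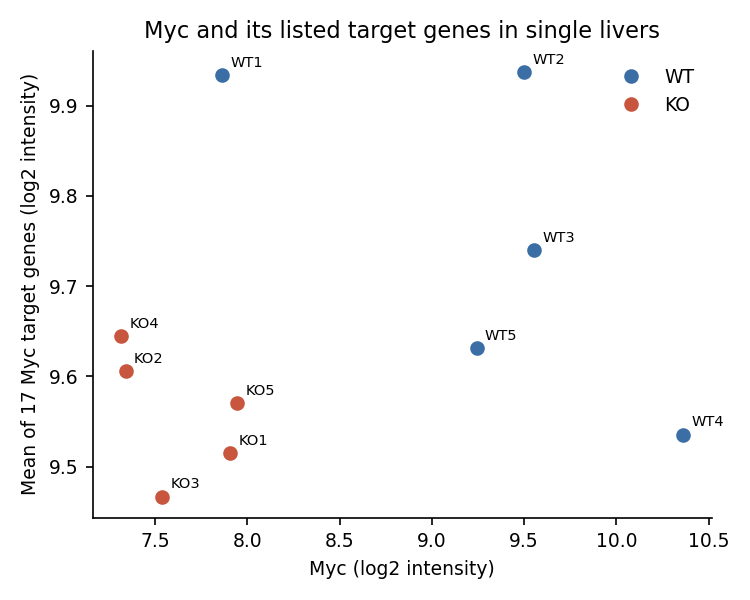
Myc log2 intensity (horizontal axis) against the mean log2 intensity of 17 listed target genes (vertical axis) in each WT and KO liver. WT 1 combines a Myc value of 7.86 with a target mean of 9.93, and WT 4 a Myc value of 10.36 with a target mean of 9.54.

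Of the 4 other members of the BTG and TOB family, which bind the deadenylase complex and slow proliferation, 2 rose and 0 fell. Besides Btg1 the other was Tob2, by 0.26 (SE 0.064, limma adjusted p = 0.0365), with groups only 0.001 apart. The Tob2 call was kept without WT 1, WT 5 or KO 1 and lost without any other single array (adjusted p up to 0.0916). Median centring lost the Tob2 call too (limma adjusted p = 0.0849). Tob1 read 11.62, 11.77, 12.12, 11.61 and 11.91 in WT and 11.52, 11.36, 11.38, 11.64 and 11.35 in KO (-0.36, limma adjusted p = 0.0543). Tob1 passed as lower in 8 of 20 alternatives, with limma adjusted p of 0.0462 with dim units filtered out, 0.0444 with median centring, 0.0488 with quantile normalization, 0.0466 with a trended robust fit and 0.0413 with array weights. It also passed without WT 1 (0.0440), WT 4 (0.0332) or KO 4 (0.0486).

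Cdkn1a and Btg2 are both classical p53 targets, and they lay on opposite sides. Among 21 other p53 targets 1 rose and 3 fell, with a median difference of 0.03. Plk3, a stress-responsive polo-like kinase, fell most, at 10.51, 11.47, 12.20, 11.56 and 11.55 in WT and 10.59, 9.71, 9.82, 9.67 and 10.82 in KO. As with Myc, WT 1 was the lowest WT liver for Plk3 and lay inside the KO range. Plk3 fell by 1.34 (a difference of -1.34, SE 0.30, limma adjusted p = 0.0200), 2.53-fold, and the call was lost without KO 2, KO 3 or KO 4 (adjusted p up to 0.0576). A trended robust fit lost the Plk3 call too (limma adjusted p = 0.0609). Plk2 fell by 0.43 (SE 0.11, limma adjusted p = 0.0386), and Gadd45a by 0.20 (SE 0.046, limma adjusted p = 0.0252). The death receptor gene Fas rose by 0.42 (SE 0.10, limma adjusted p = 0.0326). These 3 calls were unsteady. Plk2 was kept only without WT 3, WT 5 or KO 5 (adjusted p otherwise up to 0.0915). Gadd45a was kept only without WT 3, WT 4, KO 1 or KO 4 (up to 0.0607), and Fas only without WT 2, WT 4, KO 1 or KO 2 (up to 0.0813). Median centring also lost Plk2 (limma adjusted p = 0.0593) and Fas (0.0598). Quantile normalization lost Plk2 (0.0584), and array weights lost Fas (0.0662).

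Of 25 replication licensing genes beside Mcm6, 1 rose and 2 fell. Mcm10, an origin factor needed to start the replicative helicase, read 8.86, 9.36, 9.19, 8.48 and 8.82 in WT and 8.18, 8.30, 8.08, 8.29 and 8.22 in KO. It fell by 0.73 (a difference of -0.73, SE 0.13, limma adjusted p = 0.00697), 1.66-fold. Dbf4, the activator of the kinase CDC7 that fires origins, read 7.24, 7.12, 7.06, 7.05 and 7.23 in WT and 6.77, 6.56, 6.38, 6.73 and 6.85 in KO. The decrease in Dbf4 was 0.48 (a difference of -0.48, SE 0.084, limma adjusted p = 0.00508), and neither gene overlapped. Mcm7, a partner of MCM6 in the same helicase ring, rose by 0.27 (SE 0.064, limma adjusted p = 0.0285). The groups of Mcm7 were 0.001 apart, and its call was kept only without WT 1, WT 2, KO 2 or KO 3 (adjusted p otherwise up to 0.0706). Median centring lost the Mcm7 call too (limma adjusted p = 0.0566). Mcm8 differed by 0.18 (limma adjusted p = 0.159) and passed as higher without WT 1 (0.0390).

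In 11 GADD45 and growth arrest genes, a list that shares Gadd45a with the p53 targets, 2 rose and 1 fell. Gas1 rose from 8.58 ± 0.15 (SD, n = 5) to 8.98 ± 0.11 (SD, n = 5), by 0.41 (limma adjusted p = 0.00832). Gas2 rose from 9.66 ± 0.15 (SD, n = 5) to 10.12 ± 0.17 (SD, n = 5), by 0.47 (limma adjusted p = 0.00841). Neither overlapped. Ddit3 differed by -0.22 (limma adjusted p = 0.148). In the beta-catenin pathway, of which Ccnd1 and Myc are known targets, limma called 0 of 12 others, with 1 at an unadjusted p under 0.05. There Ctnnb1 differed by -0.13 (limma adjusted p = 0.154) and the feedback target Axin2 by 0.19 (0.295).

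**Figure D4:**
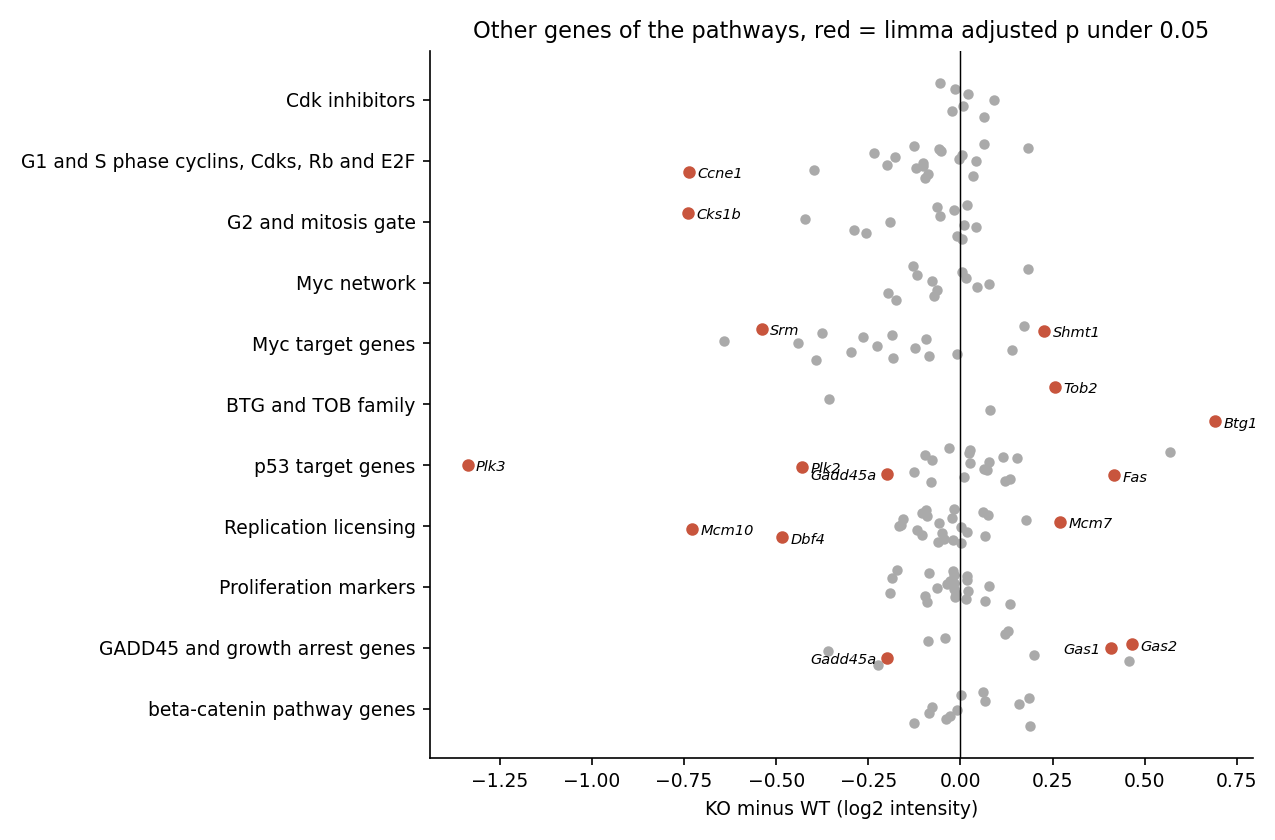
KO minus WT difference in log2 intensity (horizontal axis) for each other gene of the 11 pathway lists (rows), with genes at a limma adjusted p under 0.05 in red and named. Called genes lie on both sides of 0, 7 higher and 8 lower, and Gadd45a appears in 2 lists.

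Clock genes were compared for context. Of 17, 5 rose and 1 fell. Arntl, at 6.93 to 7.54 in WT and 9.12 to 9.82 in KO, rose by 2.13 (SE 0.14, limma adjusted p = 3.7e-06), and Clock by 0.83 (SE 0.082, limma adjusted p = 0.0001). Wee1 is a known target of the BMAL1 and CLOCK pair. Its transcript was lower in the livers in which both the Arntl and Clock transcripts were higher. These are RNA levels at ZT10 only, and a link between them was not tested. The repressor Nfil3 rose by 1.15 (limma adjusted p = 0.00148), Hlf by 0.35 (0.00298) and Cry1 by 0.56 (0.0256), while Per2 fell by 0.50 (a difference of -0.50, limma adjusted p = 0.0290). The calls of Cry1 and Per2 were lost without 4 and 6 of the single arrays in turn, with adjusted p up to 0.0588 and 0.0726. Both were also lost without the 3 arrays of widest interquartile range (limma adjusted p = 0.0880 and 0.164). The calls of Arntl, Clock, Hlf and Nfil3 were kept there. Per3 passed as lower without WT 2 (adjusted p = 0.0381) and with array weights (0.0311).

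Whether the members moved together between mice of a genotype was asked on deviations from the genotype mean, which the choice of members did not use. Over 10 mice, 15 pairs were compared by exact two-sided permutation within genotype (14400 arrangements), and 0 passed after Benjamini-Hochberg adjustment, with 2 at an unadjusted p under 0.05. Wee1 and Ccnd1 ran opposite, with Pearson r = -0.80 (exact permutation p = 0.0370, adjusted 0.272) and Spearman rho = -0.78 (exact permutation p = 0.0630, adjusted 0.315). Without WT 4 and WT 5, the 2 mice farthest out for Wee1, r was -0.53. Cdkn1a and Wee1 gave r = -0.49 (exact permutation p = 0.0497, adjusted 0.272) and rho = -0.52 (exact permutation p = 0.0483), with r = -0.70 without KO 2 and KO 5. Cdkn1a and Ccnd1 gave r = 0.51 (exact permutation p = 0.0544, adjusted 0.272) and rho = 0.65 (exact permutation p = 0.0217, adjusted 0.315), with r = 0.81 without the same mice. Thus the inhibitor and the cyclin, which differed in opposite directions between genotypes, deviated with the same sign in most mice within them, without passing the adjusted threshold.

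**Figure D5:**
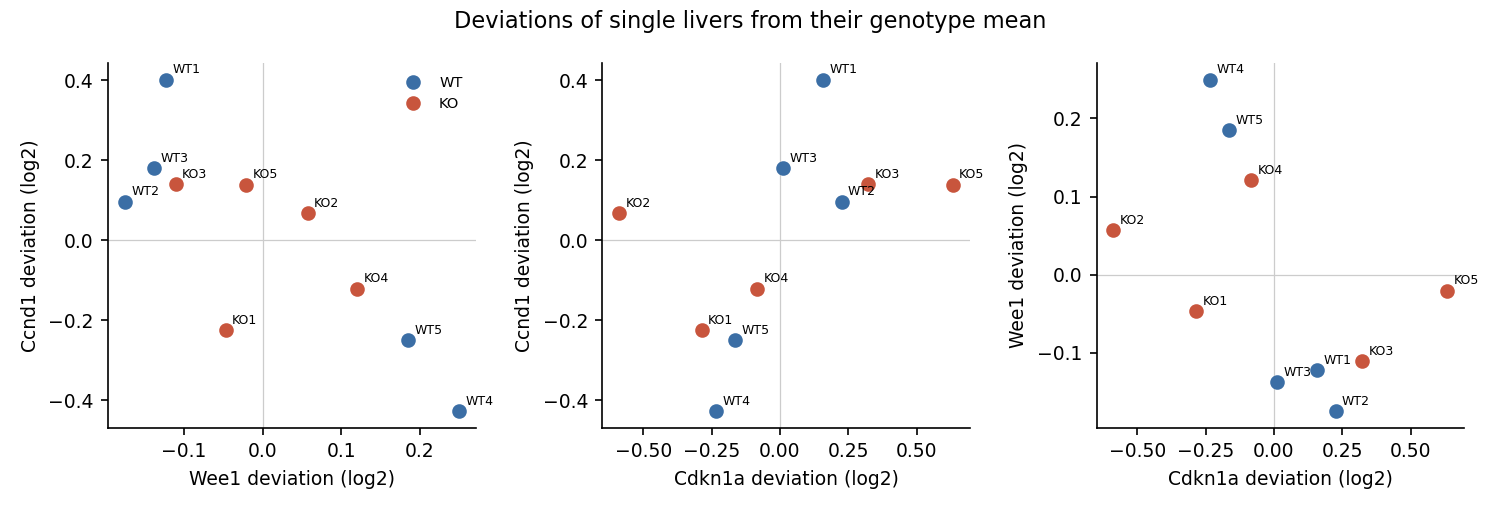
Deviation of single livers from their genotype mean (log2) for Wee1 and Ccnd1, Cdkn1a and Ccnd1, and Cdkn1a and Wee1, with WT and KO livers named. WT 4 and WT 5 are high for Wee1 and low for Ccnd1, and no pair passed the adjusted threshold.

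The units whose deviations were most like each member's over the same 10 mice were sought among 14115 candidates, and the r values, being the highest of so many, carry no test. For Cdkn1a they were Mrpl55, St3gal5 and Pxmp4 (each r = 0.96). For Wee1 they were Vamp8 (0.97), Fbxo3 (0.96) and Atl3 (0.95), and for Ccnd1 Gabbr2 (0.94), Gjb2 (0.93) and Pdcd11 (0.92). Myc was nearest to C2 (0.94), Peli2 (0.92) and Sfrp5 (0.92). Btg2 was nearest to Arhgap4 (0.95), Rfx1 (0.93) and Zbtb2 (0.93), and Mcm6 to Srp72 (0.95), Coro1c (0.94) and Frmd4b (0.91). Of these 18 genes, Pxmp4 rose in KO by 0.55 (limma adjusted p = 0.00337), while Gabbr2 fell by 0.46 (a difference of -0.46, adjusted p = 0.00649) and Coro1c by 0.24 (a difference of -0.24, adjusted p = 0.0370). The other 15 did not pass.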

How the data were processed

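The authors deposited linear intensity values of 27541 probe sets from Affymetrix Mouse Gene 1.0 ST arrays, 1 per mouse. The submitters' processing notes list RMA and Partek and give no version. Log2 was taken here. A probe-annotation table gave 1 symbol to 21631 probe sets, several to 1317 and none to 4593. Units are 19933 single genes and 785 exact symbol combinations, the brightest probe set standing for 1191 with several. KO and WT were compared with limma 3.58.1 (R 4.3.3, lmFit and eBayes, no covariates), adjusted over 20718 units. Its p-values rest on the spread among these 10 mice. The arrays' number limits precision. Members and lists were chosen with earlier results of these data known.

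Named were the members, fixed paralogs, every called list gene or otherwise up to 4 by smallest adjusted p, and the 3 units most like each member (1 symbol, mean above the lower quartile). Member pairs were compared by exact permutation. Alternatives covered probe sets, dim units, centring, quantile normalization, limma options, a pseudocount and left-out arrays. The fit was tested on simulated data.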

Additional observations from a re-analysis of the deposited data

Results flagged for a closer look

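Gadd45a in WT had 1 liver apart from the others. WT 3 read 7.38 and the other 4 livers 7.45 to 7.47, so the gap made up 0.725 of the group's range, above Dixon's critical value of 0.71 for 5 samples. Of 56 groups checked, this was the only one past that value, and chance flags about 1 in 20. None of the 12 groups of member values was past it. The call of Gadd45a was kept without WT 3.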

How the results depend on the processing

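In all 20 alternatives each member kept the direction of its difference. The 15 pairs were compared in 14 of these alternatives, and 0 passed in any of them. The members called numbered 4 to 6 with 1 array left out, 4 without KO 2 or KO 3. They numbered 5 with every probe set tested, with median centring, with quantile normalization, and without the 3 arrays of widest interquartile range. Without those arrays the whole table gave 536 calls instead of 1142, and the pathway lists 2 (0 higher, 2 lower) instead of 15, with fewer samples in the fit. With 1 array left out, the whole table gave 816 to 1243 calls and the pathway lists 9 to 16, of which 4 to 7 higher and 4 to 11 lower. Centring on array medians gave 475 units higher and 472 lower instead of 640 and 502, and 4 pathway genes higher instead of 7, and the cause was not tested. Without detection calls, how far dim probe sets stood above background is not known. No paired analysis was possible because the replicate numbers only follow the order of deposit.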

Other observations

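E2f8, an atypical E2F factor of the G1 and S phase list, was singled out after its values were seen for its scatter between livers. It read 7.80, 9.47, 8.64, 7.64 and 7.29 in WT and 7.13, 8.16, 8.66, 7.73 and 8.86 in KO. The SD was 0.88 in WT and 0.70 in KO, against median SDs of 0.095 and 0.098 over all units, and the genotypes overlapped widely (difference -0.06, SE 0.41, limma adjusted p = 0.972). Its partner E2f7 had SDs of 0.22 and 0.082.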
